A study of Homo sapiens with 8 samples.

Results

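Genes of the unfolded protein response and of the amino acid response were followed in SAS cells, a human squamous carcinoma line of the tongue, after transfection of 3 miRNA mimics. The set held 36 genes, taken by name among the gene probes of the array, of 43317 gene names in all. Of the 58201 gene probes, 46 carried one of these names. By role the set comprised 16 targets of the transcription factor ATF4, 15 genes of protein folding and degradation in the endoplasmic reticulum (ER), and 5 sensors and transcription factors.

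When unfolded proteins collect in the ER, the membrane sensors IRE1 (encoded by ERN1), PERK (EIF2AK3) and ATF6 signal to the nucleus through spliced XBP1 mRNA, through ATF4 and through the cleaved ATF6 protein. ATF4 is also made when amino acids run short, because PERK and the amino acid sensor GCN2 phosphorylate the same initiation factor, eIF2α, which slows protein synthesis in general while the ATF4 mRNA is translated. ATF4 turns on genes of amino acid uptake and synthesis and, under lasting stress, the CHOP gene DDIT3 and CHAC1, whereas XBP1 and ATF6 turn on chaperones and degradation factors.

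Each culture received 25 nM of 1 small RNA, namely a mimic of miR-629-3p, a mimic of miR-210-3p, one of miR-874-3p or a negative control (NC), and each of the 4 groups had 2 arrays. The sample labels give SAS cells kept with puromycin and RNA taken 48 h after transfection, while the study's methods name the GFP-expressing derivative SAS/GFP and a shorter interval. The study asked which genes differed between cells carrying these miRNAs, which it had linked to survival under cisplatin. The methods name different makers for the mimics and for the NC, so the maker and the difference of any miRNA from NC cannot be told apart. Nothing in the labels says that arrays of a group came from separate cultures, so the p-values measure the spread between these arrays, which may be technical.

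The mature sequences of the 3 miRNAs are given by RefSeq on GRCh38.p14, each 22 bases long, and are shown because the treated groups differ by the mimic they received. Capitals mark the seed, bases 2 to 8 from the 5′ end. No seed was shared between any pair of them.
hsa-miR-629-3p (chr15:70079387-70079408, minus strand): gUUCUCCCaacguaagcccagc
hsa-miR-210-3p (chr11:568112-568133, minus strand): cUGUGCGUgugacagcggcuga
hsa-miR-874-3p (chr5:137647582-137647603, minus strand): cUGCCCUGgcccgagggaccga

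Known binding motifs of the stress pathway were looked for in the promoters of the set, since the genes fall into classes by the factor that drives them. RefSeq windows of 250 bases before to 50 bases after each transcription start (GRCh38.p14) were held for 33 of the 36 genes, in 50 of 35116 windows, and not for PSPH, SHMT2 and SLC7A11. Both strands were searched, and no match of one motif overlapped a match of another in the windows of the set. The ER stress response element ERSE, which is CCAAT, then 9 bases of any kind, then CCACG, and is bound by ATF6 with NF-Y, was in 0.0769% of all windows and in those of 7 genes of the set (CALR, CANX, CRELD2, HSP90B1, HSPA5, PDIA6 and XBP1). ERSE-II, which is ATTGG, then any base, then CCACG, was in 0.0541% of all windows and in those of HERPUD1 and SDF2L1. The amino acid response element CARE, TGATGNAAN with N for any base, bound by ATF4 with a C/EBP partner, was in 3.61% of all windows and in those of ASNS, ATF3, CHAC1, HERPUD1 and SLC3A2. The cAMP response element CRE, TGACGTCA, was in 1.85% of all windows and in that of PPP1R15A. A match describes the letters of the window and is not a binding site shown in these cells.

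The promoters of HSPA5, which encodes the ER chaperone BiP, and of CHAC1 are shown whole up to the start, as one example of each class, with ERSE or CARE in capitals. The ERSE of HSPA5 began 66 bases before the start, and the CARE of CHAC1, on the reverse strand, 210 bases before it.
HSPA5 (chr9:125241344-125241593, minus strand): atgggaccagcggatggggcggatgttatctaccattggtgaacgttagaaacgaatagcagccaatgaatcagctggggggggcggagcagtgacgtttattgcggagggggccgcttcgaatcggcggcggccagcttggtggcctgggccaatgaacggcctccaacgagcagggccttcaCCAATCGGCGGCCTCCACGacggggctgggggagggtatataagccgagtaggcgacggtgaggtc
CHAC1 (chr15:40953221-40953470, plus strand): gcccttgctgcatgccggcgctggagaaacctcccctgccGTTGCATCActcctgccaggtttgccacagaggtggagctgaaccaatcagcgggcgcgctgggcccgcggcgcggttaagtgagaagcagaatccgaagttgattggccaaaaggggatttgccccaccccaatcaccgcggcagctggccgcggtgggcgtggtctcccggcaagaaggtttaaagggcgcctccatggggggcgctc

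The other matches before a start are shown with 20 bases on each side and the motif in capitals, first ERSE, then ERSE-II, CARE and CRE. For HERPUD1 the stretch holds both its CARE, nearer the 5′ end, and its ERSE-II. HSP90B1 had a second ERSE, on the reverse strand, 89 bases before the start. The ATF3 match lies before an upstream start of that gene, and that of SLC3A2, which lay after the start, is not shown.
HSP90B1 (chr12:103930196-103930254, plus strand): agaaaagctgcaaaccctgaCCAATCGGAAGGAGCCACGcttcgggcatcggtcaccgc
CALR (chr19:12938364-12938422, plus strand): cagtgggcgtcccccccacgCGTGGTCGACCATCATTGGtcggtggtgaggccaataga
CANX (chr5:179698758-179698816, plus strand): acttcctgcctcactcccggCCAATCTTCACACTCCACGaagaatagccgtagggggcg
PDIA6 (chr2:10812833-10812891, minus strand): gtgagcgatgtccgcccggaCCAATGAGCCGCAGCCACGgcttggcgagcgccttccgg
CRELD2 (chr22:49918534-49918592, plus strand): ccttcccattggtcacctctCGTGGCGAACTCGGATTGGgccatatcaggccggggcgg
XBP1 (chr22:28800583-28800641, minus strand): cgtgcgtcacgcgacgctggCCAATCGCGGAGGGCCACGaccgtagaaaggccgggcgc
SDF2L1 (chr22:21642094-21642144, plus strand): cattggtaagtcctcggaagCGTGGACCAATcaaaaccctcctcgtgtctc
HERPUD1 (chr16:56931945-56932055, plus strand): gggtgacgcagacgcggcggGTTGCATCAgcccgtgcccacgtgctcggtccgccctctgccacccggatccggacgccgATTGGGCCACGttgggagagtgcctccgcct
ATF3 (chr1:212565196-212565244, plus strand): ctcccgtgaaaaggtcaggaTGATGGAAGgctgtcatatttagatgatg
ASNS (chr7:97872448-97872496, minus strand): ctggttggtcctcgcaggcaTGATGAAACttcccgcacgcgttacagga
PPP1R15A (chr19:48872343-48872390, plus strand): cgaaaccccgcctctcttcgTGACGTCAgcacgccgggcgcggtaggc

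RNA was measured on 1-colour Agilent arrays, and values are log2 signal relative to the 75th percentile of the array, so that 0 is that percentile. Values of different probes are on different scales and are not compared with each other. On the miR-629-3p arrays 28113 and 28994 probes were well above background and on the NC arrays 24338 and 24691, with the other arrays between, and the part of this in the results was not tested. All 8 squamous epithelial markers checked (KRT5, KRT14, KRT17, KRT6A, TP63, SFN, CDH1 and EPCAM) were well above background on all 8 arrays, as were 1 of 5 fibroblast, 2 of 4 leukocyte and 2 of 3 endothelial markers, whose part in the results was not tested. The arrays lay on 1 slide, where one row held the arrays of miR-210-3p and miR-629-3p and the other those of NC and miR-874-3p. Slide row and the difference of miR-629-3p or miR-210-3p from NC or from miR-874-3p cannot be told apart. In contrast, miR-629-3p against miR-210-3p and miR-874-3p against NC each lay within a row. A bulk array averages a culture, so fewer cells with a transcript and less RNA per cell cannot be told apart.

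With miR-629-3p, the genes of the set that moved most were 4 ATF4 targets that rose at least 2-fold against NC: CHAC1 (4.22-fold), SLC7A11 (4.03-fold), DDIT3 (2.78-fold) and ATF3 (2.12-fold). The largest falls were in the ER genes EDEM1 (1.62-fold), HSP90B1 (1.39-fold) and CALR (1.37-fold), followed by the ATF4 target PSPH (1.33-fold). EDEM1 was dim, with a mean of -1.89 on the NC arrays, where the dimmest detected signals were -2.84 and -2.82. Its fall was not called with another background correction. ATF4 itself and HSPA5 did not pass the test. A gene was called at an adjusted p under 0.05 (limma with Benjamini-Hochberg adjustment over the 21282 genes tested), and by this rule 14 of 36 genes of the set were called, 10 higher and 4 lower. The share over all genes tested was 16.7%, with 9.28% called higher and 7.47% lower. The genes tested include dim ones, whereas all 36 of the set were well above background on all 8 arrays. In a fit of only the genes detected on all 8 arrays, 23.2% of all genes and 16 of the set were called. Under the rule of the study, which asks for a 2-fold change and an unadjusted p under 0.05, 4 genes of the set were higher (3.62% of all genes) and 0 lower (1.64% of all genes).

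Leaving out single arrays changed this number, and the share of all genes called fell and rose with it. In the other comparisons that share changed from fit to fit too. It was 14 with all 8 arrays, 5 and 4 without miR-629-3p replicate 1 or 2, 7 without either miR-210-3p replicate, 9 and 6 without NC replicate 1 or 2, and 16 and 15 without miR-874-3p replicate 1 or 2. CHAC1, SLC7A11, DDIT3 and ATF3 were called in each of these 8 fits. Comparing 2 against 2 arrays, an exact permutation test cannot give a p below 0.333.

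**Figure D1:**
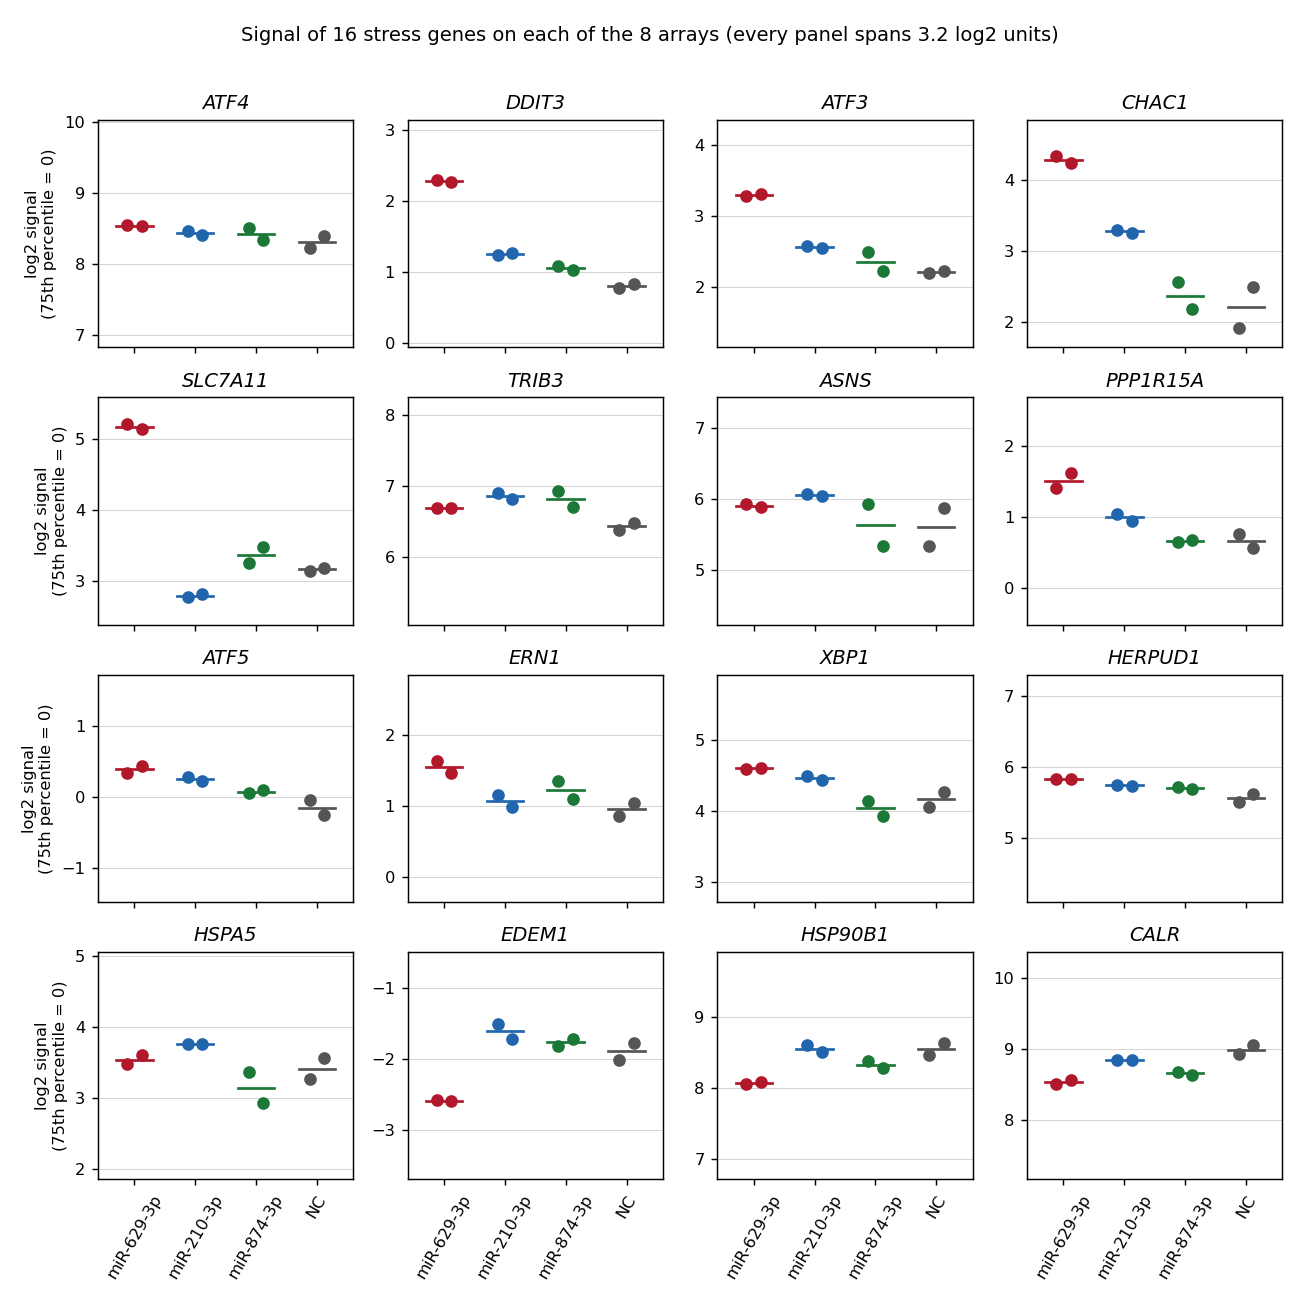
Log2 signal (y axis, 75th percentile of the array at 0) of 16 genes of the set on each of the 8 arrays, by group (x axis), with a bar at the mean of each pair of arrays and the same span of 3.2 log2 units in every panel. The miR-629-3p arrays lie above all others for DDIT3, ATF3, CHAC1 and SLC7A11 and below all others for EDEM1 and HSP90B1, while ATF4 spans 8.23 to 8.55 over the 8 arrays.

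Among the sensors and transcription factors, 2 of 5 rose and 0 fell with miR-629-3p relative to NC, or 40% called beside 16.7% of all genes. Their median log2 fold change was 0.23 beside 0.02 over all genes tested. ATF4, the central factor of the amino acid response, gave 8.55 and 8.54 on the pair of miR-629-3p arrays, 8.47 and 8.41 on those of miR-210-3p, 8.51 and 8.34 on those of miR-874-3p, and 8.23 and 8.40 on the NC arrays. Its mRNA was above both NC arrays on both miR-629-3p arrays, but the difference of 0.23 (95% interval -0.01 to 0.46) was not called. The ATF4 protein, whose synthesis is regulated in translation, was not measured by these arrays. ERN1, which encodes the sensor IRE1, gave 1.63 and 1.46 on the pair of miR-629-3p arrays, 1.15 and 0.99 on those of miR-210-3p, 1.35 and 1.097 on those of miR-874-3p, and 0.86 and 1.04 on the NC arrays. Its miR-629-3p arrays lay above the rest, and it rose by 0.59 ± 0.13 (SE) on the log2 scale with miR-629-3p (adjusted p = 0.0361). A second ERN1 probe was not called (adjusted p = 0.352 in the limma fit over probes).

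XBP1, the transcription factor downstream of IRE1, gave 4.59 and 4.60 on the pair of miR-629-3p arrays, 4.48 and 4.44 on those of miR-210-3p, 4.13 and 3.93 on those of miR-874-3p, and 4.05 and 4.27 on the NC arrays. Arrays of miR-874-3p and NC overlapped below the others, and XBP1 rose by 0.44 ± 0.11 (SE) with miR-629-3p (adjusted p = 0.0483), close to the threshold, and gave 0.26 (adjusted p = 0.128) when spots set aside as outliers were kept. Splicing of its mRNA was not analysed here. EIF2AK3, which encodes PERK, differed by 0.17 (95% interval -0.13 to 0.47) and the sensor ATF6 by -0.25 (95% interval -0.49 to -0.02), and neither was called.

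Of the 16 ATF4 targets, 7 were higher and 1 was lower with miR-629-3p, or 50% called beside 16.7% of all genes tested. Their log2 fold changes were above 0 for 15 of 16, beside 11322 of all 21282 genes tested. The median was 0.38 beside 0.02 over all genes. These targets were chosen with earlier results of these data known. Both miR-629-3p arrays lay above both NC arrays for 14 of them and below for 1. Over all 36 genes the arrays of these groups did not overlap for 29, beside 65.4% of all genes tested.

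The transcription factors among the ATF4 targets all rose. DDIT3, which encodes the proapoptotic factor CHOP (probe at chr12:57911200-57911526, hg19), gave 2.29 and 2.26 on the pair of miR-629-3p arrays, 1.24 and 1.27 on those of miR-210-3p, 1.08 and 1.03 on those of miR-874-3p, and 0.77 and 0.83 on the NC arrays. The 4 groups did not overlap, and DDIT3 rose by 1.48 ± 0.07 (SE) with miR-629-3p (adjusted p = 0.000881). ATF3, a factor induced by many stresses (probe at chr1:212793856-212793915, hg19), gave 3.28 and 3.31 on the pair of miR-629-3p arrays, 2.57 and 2.55 on those of miR-210-3p, 2.49 and 2.22 on those of miR-874-3p, and 2.20 and 2.22 on the NC arrays. The groups did not overlap, with miR-629-3p the highest and the lower miR-874-3p array just above NC, and ATF3 rose by 1.09 ± 0.10 (SE) with miR-629-3p (adjusted p = 0.00564). ATF5 gave 0.34 and 0.43 on the pair of miR-629-3p arrays, 0.28 and 0.22 on those of miR-210-3p, 0.05 and 0.09 on those of miR-874-3p, and -0.04 and -0.26 on the NC arrays. The groups followed each other in that order without overlap, and ATF5 rose by 0.54 ± 0.10 (SE, adjusted p = 0.0208), or by 0.29 (adjusted p = 0.0122) with another background correction. CEBPB, a C/EBP factor that pairs with ATF4, rose by 0.41 ± 0.08 (SE, adjusted p = 0.0219), from a mean of 4.86 to 5.28.

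Of the feedback genes of the pathway, PPP1R15A was called and TRIB3 was not. PPP1R15A encodes GADD34, the phosphatase subunit that restores protein synthesis, and gave 1.40 and 1.62 on the pair of miR-629-3p arrays, 1.04 and 0.95 on those of miR-210-3p, 0.64 and 0.67 on those of miR-874-3p, and 0.76 and 0.56 on the NC arrays. The miR-874-3p and NC arrays overlapped, both below the other groups, and PPP1R15A rose by 0.85 ± 0.11 (SE) with miR-629-3p (adjusted p = 0.0107). TRIB3, a pseudokinase that restrains ATF4, gave 6.70 and 6.69 on the pair of miR-629-3p arrays, 6.91 and 6.82 on those of miR-210-3p, 6.93 and 6.70 on those of miR-874-3p, and 6.39 and 6.48 on the NC arrays. All 6 arrays of transfected miRNAs lay above the NC arrays, but no difference from NC was called (0.26, 0.43 and 0.38, adjusted p = 0.132, 0.0661 and 0.167).

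The genes of cystine uptake and glutathione turnover held the largest differences. CHAC1, which degrades glutathione (probe at chr15:41248631-41248690, hg19), gave 4.33 and 4.23 on the pair of miR-629-3p arrays, 3.29 and 3.25 on those of miR-210-3p, 2.55 and 2.17 on those of miR-874-3p, and 1.92 and 2.48 on the NC arrays. The miR-629-3p arrays were the highest, the miR-210-3p arrays came next and those of miR-874-3p overlapped NC, and CHAC1 rose by 2.08 ± 0.21 (SE) with miR-629-3p (adjusted p = 0.00629). SLC7A11, the light chain of the cystine/glutamate exchanger xCT (probe at chr4:139085433-139085492, hg19), gave 5.21 and 5.14 on the pair of miR-629-3p arrays, 2.78 and 2.81 on those of miR-210-3p, 3.25 and 3.48 on those of miR-874-3p, and 3.15 and 3.18 on the NC arrays. The miR-629-3p arrays were the highest and the miR-210-3p arrays the lowest, and SLC7A11 rose by 2.01 ± 0.10 (SE) with miR-629-3p (adjusted p = 0.000980). SLC3A2, the heavy chain shared by xCT and the leucine transporter LAT1, differed by 0.34 (95% interval 0.11 to 0.58, adjusted p = 0.0624). SLC7A5, the light chain of LAT1, differed by 0.17 (95% interval -0.04 to 0.38). CTH, which makes cysteine from cystathionine, differed by 0.58 (95% interval 0.01 to 1.14, adjusted p = 0.141), and its miR-874-3p arrays stood at 0.69 and 1.39.

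Of the enzymes of amino acid synthesis ASNS, PHGDH, PSAT1, PSPH and SHMT2, 1 was called lower and 0 higher with miR-629-3p against NC. Over all genes tested the shares were 7.47% and 9.28%. CTH, given above, was not called. ASNS, which makes asparagine, gave 5.93 and 5.89 on the pair of miR-629-3p arrays, 6.07 and 6.04 on those of miR-210-3p, 5.92 and 5.34 on those of miR-874-3p, and 5.34 and 5.87 on the NC arrays. The miR-210-3p arrays were the highest and the miR-874-3p arrays overlapped both the miR-629-3p and the NC arrays. The difference of miR-629-3p from NC was 0.30 (95% interval -0.30 to 0.90), and it was 0.04 without NC replicate 1 and 0.56 without NC replicate 2, and was called in neither fit. In serine synthesis, PHGDH differed by 0.06 (95% interval -0.12 to 0.24) and PSAT1 by 0.24 (95% interval -0.10 to 0.58), while PSPH, the last enzyme of the pathway, fell by 0.42 ± 0.09 (SE, adjusted p = 0.0317). SHMT2, the mitochondrial enzyme that turns serine into glycine, differed by 0.08 (95% interval -0.11 to 0.27).

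**Figure D2:**
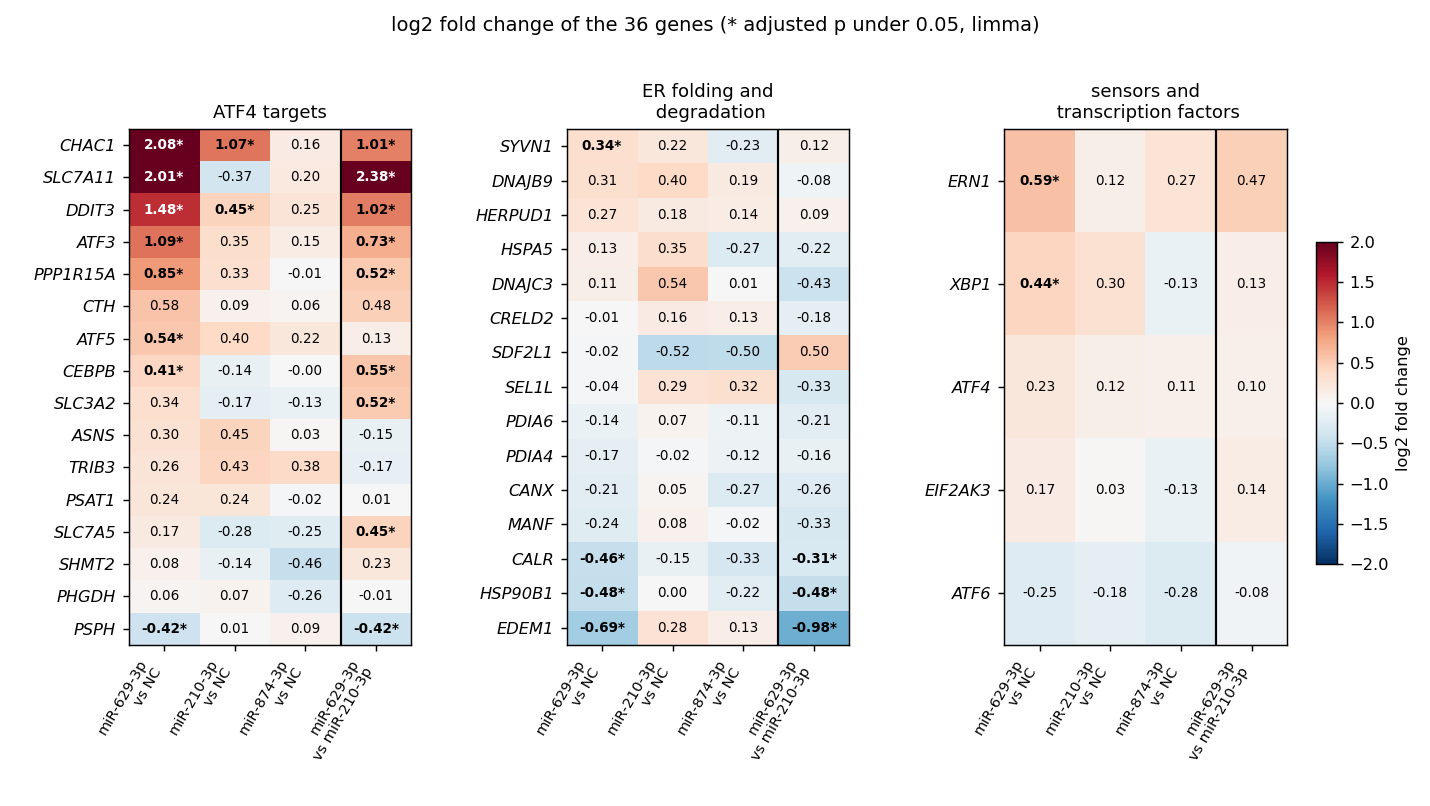
Log2 fold change (colour and number) of the 36 genes, in 3 panels by role, for each miRNA against NC and, right of the line, for miR-629-3p against miR-210-3p; an asterisk marks an adjusted p under 0.05. Asterisks in the first column stand on 8 of 16 ATF4 targets, 4 of 15 ER genes and 2 of 5 sensors and transcription factors. The third column has none. Over all genes tested, 16.7% were called in the comparison of the first column and 0.423% in that of the third.

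Of the 15 genes of ER folding and degradation, 1 was higher and 3 were lower with miR-629-3p. This made 26.7% called, beside 16.7% of all genes tested (9.28% higher and 7.47% lower). In the fit of only the genes detected on all 8 arrays, as these 15 were, 23.2% of all genes were called. The median log2 fold change of the 15 genes was -0.04. HSPA5, the main ER chaperone, gave 3.48 and 3.61 on the pair of miR-629-3p arrays, 3.76 and 3.76 on those of miR-210-3p, 3.36 and 2.93 on those of miR-874-3p, and 3.27 and 3.56 on the NC arrays. Arrays of miR-629-3p and NC overlapped, and the difference of 0.13 (95% interval -0.30 to 0.55) was not called. HSP90B1, the ER form of HSP90 (probe at chr12:104341536-104341595, hg19), gave 8.07 and 8.08 on the pair of miR-629-3p arrays, 8.61 and 8.51 on those of miR-210-3p, 8.39 and 8.29 on those of miR-874-3p, and 8.48 and 8.64 on the NC arrays. Its miR-629-3p arrays were the lowest and its miR-210-3p arrays overlapped NC, and it fell by 0.48 ± 0.09 (SE, adjusted p = 0.0218) with miR-629-3p. CALR, the lectin chaperone calreticulin (probe at chr19:13055230-13055289, hg19), gave 8.51 and 8.57 on the pair of miR-629-3p arrays, 8.84 and 8.85 on those of miR-210-3p, 8.68 and 8.63 on those of miR-874-3p, and 8.93 and 9.05 on the NC arrays. No groups overlapped, with NC the highest and miR-629-3p the lowest, and CALR fell by 0.46 ± 0.07 (SE, adjusted p = 0.0169) with miR-629-3p. CANX, its membrane-bound partner calnexin, differed by -0.21 (95% interval -0.39 to -0.03, adjusted p = 0.0999).

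The remaining folding genes were not called. The disulfide isomerases PDIA4 and PDIA6 differed by -0.17 (95% interval -0.47 to 0.12) and -0.14 (95% interval -0.30 to 0.03). The co-chaperones DNAJB9 and DNAJC3 differed by 0.31 (95% interval 0.07 to 0.56) and 0.11 (95% interval -0.31 to 0.54). Of the secreted or luminal factors, MANF differed by -0.24 (95% interval -0.53 to 0.05) and CRELD2 by -0.01 (95% interval -0.24 to 0.21). SDF2L1 differed by -0.02, with an interval of -0.95 to 0.91, and its miR-629-3p arrays stood at 5.76 and 6.76 and its NC arrays at 6.62 and 5.95.

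In ER-associated degradation, SYVN1 rose and EDEM1 fell. SYVN1, the ubiquitin ligase HRD1, gave 3.85 and 3.74 on the pair of miR-629-3p arrays, 3.71 and 3.64 on those of miR-210-3p, 3.21 and 3.25 on those of miR-874-3p, and 3.46 and 3.45 on the NC arrays. The groups did not overlap, with miR-629-3p the highest and miR-874-3p the lowest, and SYVN1 rose by 0.34 ± 0.07 (SE, adjusted p = 0.0335). EDEM1, which delivers misfolded glycoproteins to degradation (probe at chr3:5260840-5260899, hg19), gave -2.58 and -2.58 on the pair of miR-629-3p arrays, -1.50 and -1.71 on those of miR-210-3p, -1.81 and -1.71 on those of miR-874-3p, and -2.003 and -1.77 on the NC arrays. The miR-629-3p arrays were the lowest and the miR-210-3p arrays the highest, and those of miR-874-3p and NC overlapped. EDEM1 fell by 0.69 ± 0.11 (SE, adjusted p = 0.0174), and its value was -0.19 (adjusted p = 0.0507) with another background correction. HERPUD1, a membrane adaptor of the ligase complex, gave 5.83 and 5.82 on the pair of miR-629-3p arrays, 5.74 and 5.73 on those of miR-210-3p, 5.71 and 5.68 on those of miR-874-3p, and 5.50 and 5.61 on the NC arrays. All its arrays with a miRNA lay above both NC arrays, and the difference with miR-629-3p of 0.27 (adjusted p = 0.0507) was not called. SEL1L, the partner of SYVN1, differed by -0.04 (95% interval -0.28 to 0.21).

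Set beside the motifs, 2 of the 7 genes with ERSE fell with miR-629-3p (CALR and HSP90B1), 1 rose (XBP1) and 4 were not called. Of the 5 genes with CARE, ATF3 and CHAC1 rose and 3 were not called. The genes with ERSE-II, HERPUD1 and SDF2L1, were not called. Over all genes tested, 16.7% were called, 9.28% higher and 7.47% lower, and no difference between motif classes was tested.

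For miR-210-3p against NC, 2 of 36 genes of the set were called higher and 0 lower, beside 6.04% of all genes tested, 3.84% higher and 2.2% lower. CHAC1 rose by 1.07 ± 0.21 (SE, adjusted p = 0.0485), or 2.10-fold, and DDIT3 by 0.45 ± 0.07 (SE, adjusted p = 0.0256), or 1.37-fold. At an unadjusted p under 0.05, 12 genes were higher and 2 lower, beside 16.5% and 9.5% of all genes. The median log2 fold change was 0.16 for the ATF4 targets and 0.16 for the ER genes, beside 0.05 over all genes tested. SLC7A11 differed by -0.37 (95% interval -0.61 to -0.13, adjusted p = 0.0817), ATF3 by 0.35 (95% interval 0.10 to 0.61, adjusted p = 0.103), HSPA5 by 0.35 (95% interval -0.07 to 0.77) and ATF4 by 0.12 (95% interval -0.11 to 0.36). Arrays of these groups did not overlap for 30 of 36 genes, beside 61.5% of all genes. The number called was 0 without either miR-629-3p replicate, either miR-210-3p replicate or NC replicate 1, it was 1 without NC replicate 2, and 5 without either miR-874-3p replicate.

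With miR-874-3p, 0 of 36 genes were called against NC by limma, beside 0.423% of all genes tested (0.216% higher and 0.207% lower). At an unadjusted p under 0.05 there were 3 higher and 8 lower by limma, beside 7.86% and 8.52% of all genes. The methods' t-test found 7 at that level, beside 9% of all genes. After Benjamini-Hochberg adjustment it found 0 in the set and 0 among all genes. The largest differences were in SDF2L1 (-0.50, 95% interval -1.43 to 0.43), SHMT2 (-0.46, 95% interval -0.65 to -0.27, adjusted p = 0.0838) and TRIB3 (0.38, 95% interval 0.13 to 0.63). DDIT3 differed by 0.25 (95% interval 0.09 to 0.42), CHAC1 by 0.16 (95% interval -0.37 to 0.69) and SLC7A11 by 0.20 (95% interval -0.04 to 0.44). Arrays of these groups did not overlap for 21 genes, beside 43.6% of all genes. All 3 comparisons with NC share the same 2 NC arrays.

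**Figure D3:**
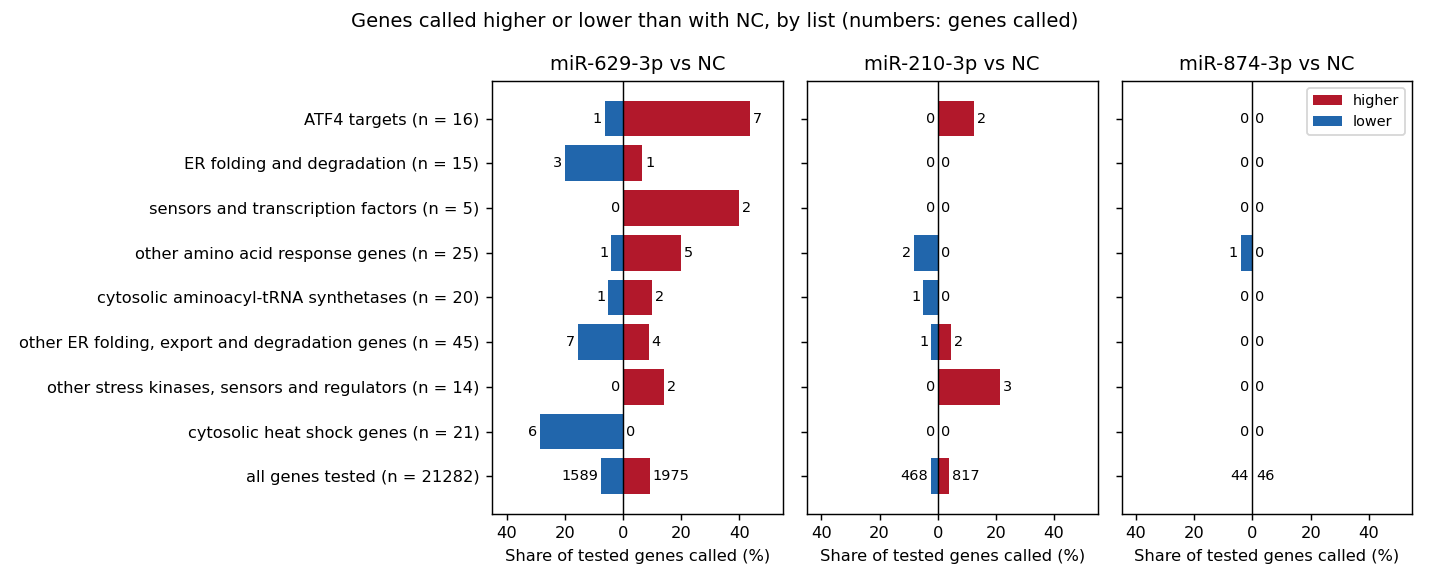
Share of tested genes (x axis, percent) called higher (right) or lower (left) than with NC by limma, for the 3 role groups of the set, 5 further lists and all genes tested, in 1 panel per miRNA; numbers are genes called. With miR-629-3p 7 of 16 ATF4 targets were higher and 6 of 21 heat shock genes lower, beside 9.28% and 7.47% of all genes. With miR-874-3p 1 gene of all these lists was called, beside 0.423% of all genes.

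The difference between miR-629-3p and miR-210-3p was tested directly, in arrays of the same slide row. Of the 36 genes, 8 were higher and 4 lower with miR-629-3p, beside 22.6% of all genes tested, 9.83% higher and 12.7% lower. SLC7A11 differed by 2.38 ± 0.10 (SE, adjusted p = 0.000660), or 5.21-fold, DDIT3 by 1.02 ± 0.07 (SE, adjusted p = 0.00217) and CHAC1 by 1.01 ± 0.21 (SE, adjusted p = 0.0262). ATF3 (0.73), CEBPB (0.55), SLC3A2 (0.52), PPP1R15A (0.52) and SLC7A5 (0.45) were also higher, so both chains of LAT1 and both chains of xCT were higher with miR-629-3p than with miR-210-3p. EDEM1 (-0.98), HSP90B1 (-0.48), PSPH (-0.42) and CALR (-0.31) were lower. DDIT3 and SLC7A11 kept this call in 21 of 21 alternative analyses, while the number called was 3 without either miR-629-3p replicate, 4 and 3 without miR-210-3p replicate 1 or 2, and between 11 and 17 without an NC or miR-874-3p array. For TRIB3 (-0.17, 95% interval -0.41 to 0.08), ASNS (-0.15, 95% interval -0.75 to 0.45) and ATF5 (0.13, 95% interval -0.10 to 0.37) no difference between the miRNAs was called.

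The miR-874-3p arrays lay in the other slide row than those of miR-629-3p and miR-210-3p. Row and the difference of either of those miRNAs from miR-874-3p cannot be told apart. Against miR-874-3p, miR-629-3p gave 12 genes called higher and 2 called lower, beside 16.2% of all genes tested, 9.34% higher and 6.88% lower. CHAC1 (1.92), SLC7A11 (1.81), DDIT3 (1.22), ATF3 (0.94) and PPP1R15A (0.86) differed most among those higher, and EDEM1 (-0.82) and PSPH (-0.51) were the 2 lower. The number called was 5 without either miR-629-3p replicate and 8 and 9 without miR-210-3p replicate 1 or 2. XBP1 (0.56), SYVN1 (0.57), SHMT2 (0.55) and PHGDH (0.32) were also higher than with miR-874-3p. Set against miR-874-3p, miR-210-3p gave 3 genes that were higher (SYVN1, 0.45; PHGDH, 0.33; CANX, 0.32) and 1 that was lower (SLC7A11, -0.57), beside 9.79% of all genes tested, 6.32% higher and 3.47% lower. Without any one miR-629-3p or miR-210-3p array 0 genes of the set were called, without either NC array 1, which was none of these 4, and without miR-874-3p replicate 1 or 2 there were 6 and 2, of which 3 and 2 were among these 4. Over all 4 groups together, 18 of 36 genes were called by the F test of limma, beside 25.2% of all genes. For 12 of the 18 it was miR-629-3p whose mean stood farthest from that of the remaining arrays. This share was not counted over all genes, so the 12 cannot be read as particular to the 18 genes of the set called. The number called fell to 2 without either miR-629-3p replicate, to 6 without either miR-210-3p replicate and to 12 without NC replicate 2 (14 without the other NC array or without miR-874-3p replicate 2, 20 without miR-874-3p replicate 1).

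Further genes of the same pathways, from lists written by hand, were read in the same fit. Of 25 other amino acid response genes, 5 were called higher and 1 lower for miR-629-3p against NC. This made 24% called, beside 16.7% of all genes and 23.2% in the fit of those detected on all 8 arrays. NUPR1, a stress-induced chromatin protein, stood at 2.34 ± 0.05 (SD, n = 2) with miR-629-3p, -1.31 ± 0.34 (SD, n = 2) with miR-210-3p, 1.21 ± 0.33 (SD, n = 2) with miR-874-3p and 0.57 ± 0.45 (SD, n = 2) with NC. It was higher than NC by 1.77 with miR-629-3p (adjusted p = 0.0161) and lower with miR-210-3p (-1.88, adjusted p = 0.0261), and it differed between these miRNAs by 3.65 ± 0.28 (SE, adjusted p = 0.00292). With another background correction NUPR1 differed between miR-629-3p and miR-210-3p by 2.22, still called. Its difference of 0.64 for miR-874-3p against NC was not called (adjusted p = 0.337). SLC6A9, a glycine transporter, was higher by 1.47 with miR-629-3p (adjusted p = 0.00574). DDIT4, an inhibitor of mTORC1, fell by 1.37 with miR-629-3p (adjusted p = 0.0104) and by 1.06 with miR-210-3p (adjusted p = 0.0331). With miR-210-3p 0 of these 25 genes were higher and 2 (8%) lower, beside 3.84% and 2.2% of all genes, and with miR-874-3p EIF4EBP1, a repressor of cap-dependent translation, was the single one called (-0.82, adjusted p = 0.0486).

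Of 45 other genes of ER folding, export and degradation, 4 were higher and 7 lower with miR-629-3p. This made 24.4% called, beside 16.7% of all genes and 23.2% in the fit of those detected on all 8 arrays. The cargo receptor LMAN1 (-0.62, adjusted p = 0.0152) and the ER oxidase listed as ERO1L (-0.58, adjusted p = 0.00976) differed most among those called. With miR-210-3p, 2 were higher and 1 lower, or 6.67% called beside 6.04% of all genes, and the largest differences among those called were in FICD, which modifies HSPA5 by AMPylation (0.80, adjusted p = 0.0144), and in the chaperone HSPA13 (0.71, adjusted p = 0.0129). Among 14 other kinases and regulators of the response, 2 were higher with miR-629-3p, or 14.3% beside 16.7% of all genes called, namely PPP1R15B, the constitutive partner of the eIF2α phosphatase (0.54, adjusted p = 0.0124), and CREB3 (0.35, adjusted p = 0.0402). With miR-210-3p 3 (21.4%) were higher, beside 3.84% of all genes, led by PPP1R15B (0.79, adjusted p = 0.0107) and EIF2S1, which encodes eIF2α itself (0.68, adjusted p = 0.0372).

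All 36 genes of the set passed the filter on dim probes, with the probe used well above background on all 8 arrays. Of 46 probes 45 passed, and 1 of DNAJC3 was above background on 0 arrays. In 6 genes more than 1 probe passed, and they did not always give the same value. For ATF3, probes at chr1:212788502-212788561 and at chr1:212793856-212793915 (hg19) gave 1.11 and 1.09 with miR-629-3p against NC, whereas one at chr1:212792519-212792578, between them, gave 0.10 (adjusted p = 0.643). The fourth was above background on both miR-629-3p arrays and on neither NC array and was at least 1.25-fold higher, the bound given by the dimmest signal detected on the NC arrays. The second CHAC1 probe was also above background on neither NC array and gave at least 3.95-fold with miR-629-3p and at least 1.74-fold with miR-210-3p (adjusted p = 0.00636 and 0.0508 in the fit over probes).

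SEL1L had 1 probe of 3 that stood apart. Its probe used gave 0.29 with miR-210-3p (95% interval 0.05 to 0.53), while another was above background on both miR-210-3p arrays and neither NC array and gave at least 1.45-fold (adjusted p = 0.0256 in the fit over probes), and the last gave 0.07. The second HSP90B1 probe gave -0.27 (adjusted p = 0.15) with miR-629-3p beside -0.48 for the probe used, the same direction without a call. The second ERN1 probe was above background on both miR-629-3p arrays and neither NC array. It gave at least 1.12-fold (adjusted p = 0.352 in the fit over probes). For CANX the second probe gave -0.02 with miR-629-3p (adjusted p = 0.926) beside -0.21 for the probe used.

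**Figure D4:**
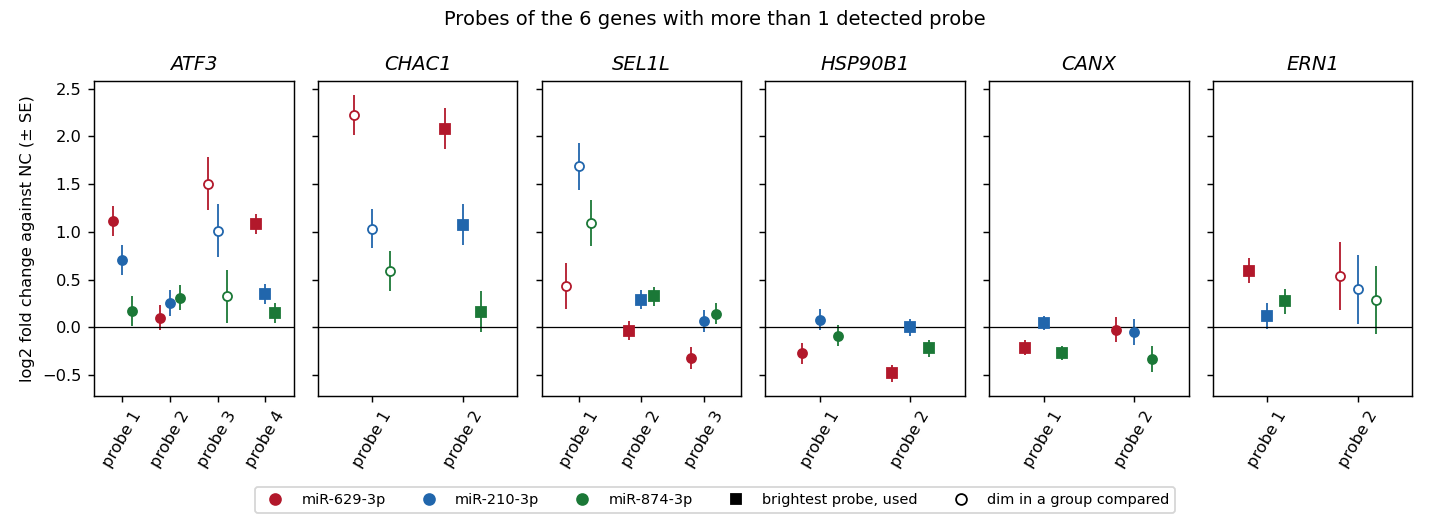
Log2 fold change against NC with its SE (y axis) for every detected probe of the 6 genes with more than 1, ordered by position; colours are the miRNAs, squares the brightest probe, which was used, and open symbols probes above background on no array of a group compared, where only a bound holds. Probe 2 of ATF3 lies at 0.10 with miR-629-3p while probe 1 lies at 1.11 and the probe used at 1.09.

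Over 21 alternative analyses of miR-629-3p against NC, the 4 genes with the largest rises kept their call in 20. They lost it with the methods' t-test after adjustment, which called 0 of all 21282 genes tested. PPP1R15A kept it in 19, EDEM1 and CALR in 16 each, ATF5 in 14, CEBPB in 13, and HSP90B1 and PSPH in 12 each. ERN1 and SYVN1 kept it in 11 each, and XBP1 kept it in the fewest, 8. For miR-210-3p against NC, CHAC1 kept its call in 10 and DDIT3 in 11.

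**Figure D5:**
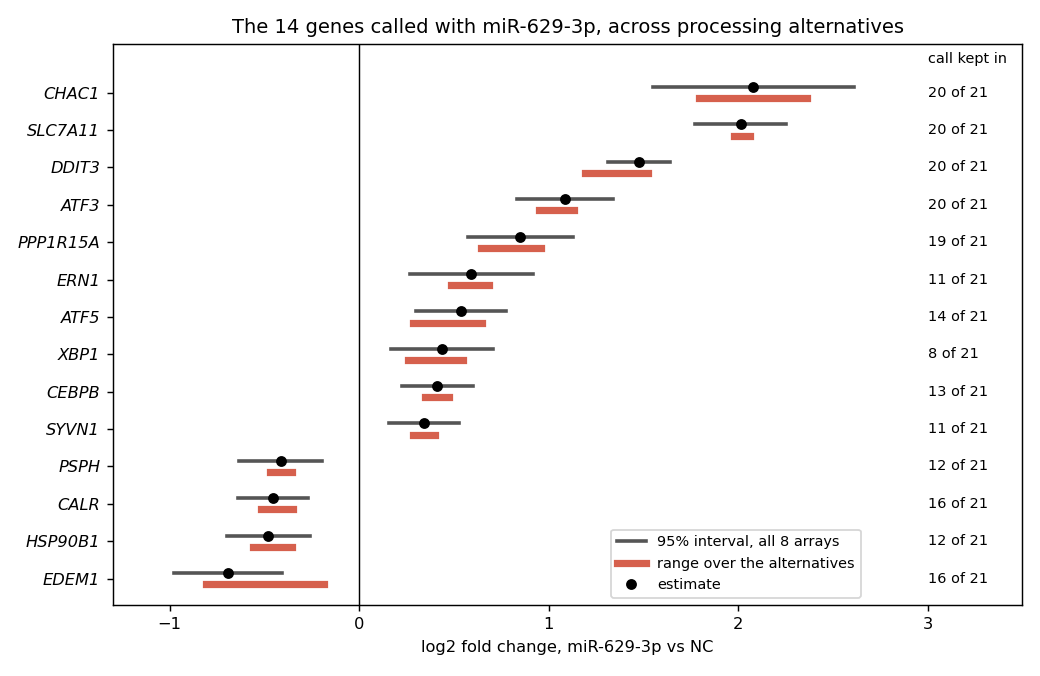
Log2 fold change (x axis) of miR-629-3p against NC for the 14 genes called, as estimate with 95% interval (grey) and as range over 21 alternative analyses (red), with the number of alternatives that kept the call at the right. CHAC1, SLC7A11, DDIT3 and ATF3 kept it in 20 of 21 and XBP1 in 8 of 21.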

How the data were processed

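SAS cells were profiled on 8 arrays, 2 for each of the 3 mimics and 2 for NC, as the sample labels group them. Per the file headers, the intensity values are processed spot signals that the authors obtained with Agilent Feature Extraction 11.5.1.1 (background-subtracted, spatially detrended, without normalization across arrays). A table of log2 values of these arrays was deposited too, with its scale unstated. Against the scanner values they were log2 signal minus about the 75th percentile, with the direction known from single-colour signals, and they served as an alternative.

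Here log2 of the processed signal minus the 75th percentile of each array was taken, without control spots and without 87 to 346 outlier spots per array of 60901. These numbered 87 to 162 on the arrays of miR-629-3p and miR-210-3p and 297 to 346 on those of miR-874-3p and NC, the other slide row. With them kept, 15 genes of the set were called for miR-629-3p against NC, of which 13 were among the 14 of the main fit. Probes had to be well above background on both arrays in 1 group or more. Each gene was represented by its brightest probe, leaving 21282 genes. All 8 arrays were fitted with lmFit and eBayes of limma 3.58.1 (R 4.3.3) with no covariate (residual degrees of freedom 4, prior 1.68), and p-values were Benjamini-Hochberg adjusted over all genes. The fit was also run on simulated data with independent noise on each array. That run held no effect of slide row, maker or shared culture, so it cannot speak to these. Adjusted p-values and SEs are from this limma fit unless a test is named. The number of arrays limits the precision.

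The members and the further lists were chosen with earlier results of these data known. Values on every array are given for ATF4, DDIT3, ATF3, ASNS, CHAC1, TRIB3, XBP1, HSPA5, HERPUD1 and SLC7A11 and for the 8 largest changes among members called against NC; HSP90B1, CALR, SYVN1 and, in the closing section, HSPE1 and AARS were added after their values were seen. Of each further list, the 2 largest called changes are named. Probe coordinates are those of the array annotation on hg19; promoter and miRNA sequences are RefSeq's on GRCh38.p14. Alternatives were other background corrections, scalings, filters, probe rules, test settings and leaving out each array.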

Additional observations from a re-analysis of the deposited data

How the results depend on the processing

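Log2 fold changes of the 36 genes in the 6 comparisons, and of the called genes of the further lists (the latter run after seeing the data), were recomputed under 21 alternatives. None of the 46 called values of the set, nor of the 129 of the further lists, reversed. Of 4536 values of the set, 3935 kept their direction and side of the threshold, 276 lost a call, 112 gained one, 111 without a call moved by more than 1 SE, and 102 without a call changed sign, HSPA5 for miR-629-3p against NC among them. Of 2708 values of the further lists, 903 lost a call. Numbers of genes of the set called moved by more than 1.5 times as follows. For miR-629-3p against NC (14) they were 7 in a fit of those 2 groups alone, 0 with the methods' t-test after adjustment (4 higher and 0 lower at the study's threshold), and 4 to 16 when 1 array was left out. For miR-210-3p against NC (2) they were 8 with normexp, 1 with median centring, 0 without a filter, 5 with detection on all 8 arrays, 4 with the mean of a gene's probes, 0 with those 2 groups alone, 7 with an intensity trend, 0 with the methods' t-test, and 0 to 5 with 1 array left out. For miR-874-3p against NC (0) they were 2 with normexp, 2 with a trend, and 0 with each array left out. For miR-629-3p against miR-210-3p (12) they were 5 without a filter, 7 with the methods' t-test, and 3 to 17 with 1 array left out. For miR-629-3p against miR-874-3p (14) they were 3 with those 2 groups alone, 0 with the methods' t-test, and 5 to 13 with 1 array left out. For miR-210-3p against miR-874-3p (4) they were 9 with normexp, 2 with quantile normalization, 2 with median centring, 0 without a filter, 8 with detection on all 8 arrays, 2 with the mean of probes, 0 with those 2 groups alone, 9 with a trend, 0 with the methods' t-test, and 0 to 6 with 1 array left out. For the F test (18) they were 9 without a filter and 2 to 20 with 1 array left out. The cause was not tested. Fits of 2 groups, and fits with 1 array fewer, have fewer degrees of freedom, and the share of all genes called changed from fit to fit as well. After adjustment the methods' t-test called 0 of all 21282 genes for miR-629-3p against NC and 0 against miR-874-3p. It called 1 for miR-210-3p against NC, 3 for miR-210-3p against miR-874-3p and 1255 for miR-629-3p against miR-210-3p.

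Array numbers did not pair the samples: the correlation of replicate differences between groups was -0.11 to 0.03 over the 6 pairs of groups. With the replicate number as a block, 8 genes were called for miR-629-3p against NC, 0 for miR-210-3p and 0 for miR-874-3p against NC, 8 for miR-629-3p against miR-210-3p, 9 for miR-629-3p against miR-874-3p, 0 for miR-210-3p against miR-874-3p and 7 by the F test. The slide as a block was not run, since all arrays lay on 1 slide.

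Leaving out the filter moved the median log2 fold change of all genes for miR-629-3p against NC to -0.17; no other alternative moved it by more than 0.1. With the mean of its probes, ATF3 gave 0.58 (adjusted p = 0.0291) for miR-210-3p against NC and 0.37 (adjusted p = 0.0372) for miR-629-3p against miR-210-3p. Normexp moved EDEM1 with miR-629-3p to -0.19 (adjusted p = 0.0507) against NC, -0.24 (adjusted p = 0.0187) against miR-210-3p and -0.22 (adjusted p = 0.0278) against miR-874-3p. It also moved NUPR1 for miR-210-3p against NC from -1.88 to -0.91, LMAN1 for miR-629-3p against NC from -0.62 to -0.27, and FICD for miR-210-3p against NC from 0.80 to 0.53, all still called, and LMAN1 for miR-629-3p against miR-210-3p to -0.16 (adjusted p = 0.0637). No spot was saturated, and 41.8% to 49.8% of probes per array were well above background.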

Other observations

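Genes of protein folding in the cytosol and mitochondria were read as values beside the ER genes. Of 21 heat shock genes, 0 were called higher and 6 (28.6%) lower for miR-629-3p against NC, beside 9.28% and 7.47% of all genes, with a median log2 fold change of -0.28. The largest falls were in FKBP4, a co-chaperone of HSP90 (-0.75, adjusted p = 0.0155), and in HSPD1, the mitochondrial chaperonin (-0.73, adjusted p = 0.0147). HSPE1, the partner of HSPD1 in the mitochondrion, fell by 0.58 (adjusted p = 0.0181). Against NC, 0 of these 21 genes were called by limma for miR-210-3p (median 0.08) or for miR-874-3p (median 0.06) at an adjusted p under 0.05, while 5 and 3 had an unadjusted p under 0.05 (26% and 16.4% of all genes) and 5 and 1 by the methods' t-test (22.4% and 9% of all genes). Between miR-629-3p and miR-210-3p, in the same slide row, 10 of the 21 were lower and 0 higher with miR-629-3p, beside 12.7% of all genes tested called lower.

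Of 20 cytosolic aminoacyl-tRNA synthetases, which ATF4 also drives in part, 2 were higher and 1 lower with miR-629-3p, or 15% called beside 16.7% of all genes. DARS fell by 0.75 (adjusted p = 0.00568), GARS rose by 0.50 (adjusted p = 0.0327) and AARS by 0.39 (adjusted p = 0.0434). With miR-210-3p, QARS was lower by limma (-0.42, adjusted p = 0.0422), and with miR-874-3p limma called 0 (1 at an unadjusted p under 0.05, 0 by the methods' t-test).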
